A study of Arabidopsis thaliana with 9 samples.

Results

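The microRNA (miRNA) miR414 of Arabidopsis thaliana and the candidate cleavage sites listed for it were described in nanoPARE libraries, in which 5′ ends of RNA are captured, including the uncapped ends that miRNA-guided slicing leaves on the 3′ fragment. All groups were whole 7-day-old Col 0 seedlings, without any mutant allele or transgene. Seedlings were left unheated (Control), exposed to 37°C during 1 h (HS), or given this heat and then allowed 2 h at 22°C (Recovery), and each group held 3 libraries that the series calls biological replicates. Members were all lines assigned to ath-miR414 in the 9 lists of candidate sites, leaving out the heat shock genes AT5G52640 and AT1G16030, AT3G16640, and the elongation factor genes AT1G07920, AT1G07930, AT1G07940 and AT5G60390. This left 516 lines at 249 sites in 236 loci, out of 3041 lines at 1662 sites for 279 guides. The 7 loci left out carried another 46 miR414 lines at 6 sites, found at 6 of them.

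A plant miRNA is loaded into an ARGONAUTE protein, mainly AGO1, and guides it to transcripts that pair with the miRNA over nearly its whole length. The transcript is then cut opposite the middle of the miRNA, between the bases that pair with miRNA bases 10 and 11. The Allen score of a site adds penalties for imperfect pairing, so that a score of 0 is a perfect duplex, and scores up to 6 were listed. A guide made of a simple repeat can pair with any transcript that holds the matching repeat, such as runs of codons for aspartate and glutamate, which are common in acidic stretches of chromatin, nucleolar and other proteins.

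The letters of miR414 are shown because its repeats set which transcripts it can pair with, next to those of 2 other repeat guides, miR5021 and miR5658. They were read from the miRNA features of the RefSeq annotation of TAIR10.1, with the seed, bases 2 to 8, in capitals.
miR414: uCAUCUUCaucaucaucguca
miR5021: uGAGAAGAagaagaagaaaa
miR5658: aUGAUGAUgaugaugaugaaa
miR414 lies on the minus strand of chromosome 1 at 25137519 to 25137539, in the gene MIR414 (AT1G67195). Of its 19 overlapping triplets, 13 were UCA, CAU or AUC, and only 9 different triplets occurred. miR5021 (20 bases, chromosome 2) held 6 different triplets out of 18, and miR5658 (21 bases, chromosome 4) held 5 out of 19. The 3 guides shared no seed.

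A perfect site of miR414 would be the reverse complement of the miRNA, and the sites below are shown because they recur in the results that follow. Capitals in the sites mark each base that differs from the perfect site, G:U pairs included.
perfect site: tgacgatgatgatgaagatga
RPL5B: tgaTgatgatgatgaGgatga
HMGB6: tgacgatgatgatgaagTtga
J3: tgaTgatgaCgatgaagatga
CAM1: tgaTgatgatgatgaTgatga
AVP1: tgacgatgatgaAgaagaAga
ROC3: tgaTgatgatgatgaTgatCT
HMGB2: CgaGgatgatgCtgaGgatgG
AT2G24550: tgGTgatgatgatgaagatga
Coordinates are those of TAIR10.1. The site of RPL5B, a protein of the large ribosomal subunit, lay in coding exon 8 of 8 on the plus strand of chromosome 5 (15905155 to 15905175) and scored 1.5. The site of HMGB6, a high-mobility-group chromatin protein, lay in coding exon 4 of 4 on the minus strand of chromosome 5 (7888800 to 7888820) and scored 2. The site of J3, a DnaJ-type co-chaperone of HSP70, spanned the end of the coding sequence and the 3′ UTR in exon 7 of 7 on the minus strand of chromosome 3 (15869161 to 15869181) and scored 2.5. The site of CAM1, a calmodulin, lay in the 3′ UTR on the minus strand of chromosome 5 (15004737 to 15004757) and scored 2.5. Further sites in a 3′ UTR were those of AVP1, the vacuolar proton pyrophosphatase (chromosome 1, 5402207 to 5402227, plus strand, score 4), and ROC3, a cyclophilin (chromosome 2, 7201400 to 7201420, plus strand, score 5.5). The site of HMGB2 lay in coding exon 7 of 8 on the plus strand of chromosome 1 (7178346 to 7178366) and scored 5.5. That of AT2G24550, annotated as a major centromere autoantigen B-like protein, lay in coding exon 2 of 2 on the minus strand of chromosome 2 (10428064 to 10428084) and scored 1. For AT2G24550 the match rested on the score alone, since its deposited position was not that of the match.

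In the reference, 248 of the 249 named transcripts were found. The deposited position and score both matched an ungapped duplex at 56 sites. A position was counted as matching only if it was 1 lower than the partner of miRNA base 10. At a further 75 sites the transcript held exactly 1 window of the deposited score, away from the deposited position, at 27 sites it held several, and at 90 sites it held none. The cause of the mismatch was not tested, and placement is given below only for the 56 sites. Of these, 49 lay wholly in coding sequence, 6 in a 3′ UTR, and the J3 site spanned the stop.

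Coding sites lay mostly in one reading frame. At 42 of the 49 coding sites (85.7%) the site began on the third base of a codon, so that the GAT, GAC, GAA and GAG triplets of the site were read as codons of aspartate and glutamate. At 7 sites (14.3%), HMGB6 among them, it began on the second base, and at 0 on the first. The same held for pairing windows in general. Among 4007 ungapped windows of score up to 6 that lay wholly in the coding sequence of 27444 reference genes, 3707 (92.5%) began on the third codon base, 298 (7.44%) on the second and 2 on the first. The 49 placed coding sites thus lay mostly in the frame that prevails among sequences that pair with miR414. They were placed by matching such windows, so the likeness is a description and says nothing of the sites not placed.

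Windows that pair with miR414 were frequent. Counting 1 transcript a gene and ungapped pairing only, 1908 of the 27444 genes (6.95%) held a window of score up to 6, 535 a window of up to 4, and 52 a window of up to 2. miR5021 had such windows up to 6 in 4537 genes and miR5658 in 1156 genes, whereas miR160a-5p, which pairs with transcripts of auxin response factors, had them in 5 genes and miR396a-5p in 192. Genes with a miR414 window held 2.29 windows on average.

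miR414 had the most lines of any guide. With the 7 loci left out for all guides, it accounted for 17.3% of lines and 15.1% of sites, ahead of miR5021 with 168 lines at 117 sites and miR838 with 90 lines at 48 sites, and miR5658 had 58 lines at 34 sites. The lines of miR414 had better pairing than those of the other guides. The median Allen score was 4.64 ± 0.22 (SD over 9 libraries) for miR414 against 5.5 in every library for the other guides, lower in 9 of 9 libraries (two-sided exact sign-flip permutation over libraries, p = 0.0039, the smallest this test can give, adjusted p = 0.0313 over 8 comparisons). No difference was detected from miR5021, whose median was 4.78 ± 0.58 (exact permutation, adjusted p = 0.688), or from miR5658 with 4.25 ± 0.85 (exact permutation, adjusted p = 0.325). The score of a site is the same in every library and some sites recur, so the 9 medians are partly repeated readings. The p-values on Allen scores, here and below, treat libraries as independent and do not measure the spread between sites.

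Signal at the sites was low. One read corresponded to 0.217 to 0.429 RPM (reads scaled to library size), and the miR414 lines of a library summed to 73.7 to 161 reads over 40 to 72 sites. The median line held 1 or 2 reads, and 45.0% to 69.4% of a library's miR414 lines held 1 read or less. Fractions of a read were also listed, such as 0.00309 RPM in Recovery 2 at GDU3. The fold of a line is its RPM plus 1 over a local background RPM plus 1, and a fold of 1 means that the site stood no higher than the transcript around it. Of the 516 lines, 104 had a fold over 1, 99 a fold of 1 and 313 a fold under 1, with a median of 0.81. Over libraries the median fold averaged 0.85 ± 0.09 for miR414 and 0.80 ± 0.04 for the other guides, and the difference did not pass the test (exact permutation, adjusted p = 0.25). Median RPM averaged 0.408 ± 0.141 and 0.314 ± 0.0604, and did not pass either (exact permutation, adjusted p = 0.333, higher in 3 libraries and equal in 6).

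Of the 249 sites, 143 (57.4%) were listed in a single library, 44 in 2 libraries, and 62 (24.9%) in at least 3. None was listed in all 9, and 3 were listed in 8, namely those of ROC3, AT2G24550 and AT2G35680. Among the other guides, 65.1% of sites were listed in a single library. No miR414 site had another guide at the same position, and 1 had another guide, miR390a-3p, within 10 bases.

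Sites fell into 3 classes by Allen score. The best-paired class, scores of 0 to 2, held 11 sites (4.42%) with 26 lines and 5.53% of the miR414 RPM. Scores of 2.5 to 4 held 84 sites, 179 lines and 35.0% of the RPM. Scores of 4.5 to 6 held 154 sites (61.8%), 311 lines and 59.5% of the RPM. No site scored below 1. Median RPM per library was 0.696 ± 0.346 in the class 0 to 2 and 0.334 ± 0.0725 in the class 4.5 to 6, over the 8 libraries that listed both. It was higher in the class 0 to 2 in 6 of the 8, a difference that did not pass the adjusted test (two-sided exact permutation, p = 0.0469, adjusted p = 0.125). The median fold was 0.90 ± 0.18 against 0.85 ± 0.07 (exact permutation, adjusted p = 0.357).

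The authors' adjusted p was under 0.05 for 32 of the 516 miR414 lines (6.20%), beside 4.14% of all lines, in which the 7 loci were kept. Because that p itself depends on pairing, it is given by class as a description only. It was under 0.05 in 23 of 26 lines (88.5%) with scores of 0 to 2, in 9 of 179 (5.03%) with scores of 2.5 to 4, and in 0 of 311 with scores of 4.5 to 6. All 13 lines that scored 1 and all 5 that scored 1.5 were under 0.05, as were 5 of the 8 that scored 2. The 32 lines nevertheless had a median fold of 1.06, 15 of them had a fold of at most 1, 12 held 1 read or less, and 2 had a fold over 2. In the other guides, the 91 lines under 0.05 had a median fold of 1.63, and 29 (31.9%) had a fold over 2. Per library, 6.32 ± 2.61% of the miR414 lines and 3.54 ± 1.61% of the other lines were under 0.05, higher for miR414 in 7 of 9 libraries, which did not pass after adjustment (exact permutation, p = 0.0273, adjusted p = 0.109).

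AT2G24550 was the best paired of the sites listed in at least 6 libraries. Its signal was 1.29, 0.698 and 0.631 in Control, 0, 1.25 and 1.304 in HS, and 0.582, 0.618 and 1.302 RPM in Recovery. The groups overlapped, and the authors' p was under 0.05 in all 8 libraries that listed the site. Its fold nevertheless ran from 0.32 to 1.501 with a median of 0.86, so that in some libraries the transcript around the site held more ends than the site. Its second site, with a score of 4, was listed in 1 library, at 0.251 RPM.

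The other sites with the authors' p under 0.05 in at least 2 libraries were sparser. AT3G23160, a protein of unknown function, had 0.349 RPM in Control 2 and 0.631 in Control 3, and no heated library listed it. AT5G57580, annotated as a calmodulin-binding protein, had 0.316 RPM in Control 3, 0.251 in HS 2 and 0.291 in Recovery 1, which is 1 read in each of them. At these counts a library without the site is not distinguishable from one with it.

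RPL5B likewise had 0.316 RPM in Control 3, 0.251 in HS 2 and 0.434 in Recovery 3, with folds of 0.45 to 0.57, so that its site lay below its surroundings each time. UBC5, a ubiquitin-conjugating enzyme, was listed at 0.349 and 0.631 RPM in Control 2 and 3, at 0.326 in HS 3 and at 1.24 in Recovery 2. AT4G18905, a WD40 repeat protein, was listed in Recovery only, with 0.927 RPM in Recovery 2 and 0.108 RPM in Recovery 3. None of these sites was listed in all 3 libraries of any group.

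The remaining sites with scores of 0 to 2 were each listed in a single library. AT5G04980, a DNase I-like protein, had 1.29 RPM in Control 1 with a fold of 1.60. AT4G29520, annotated as a nucleophosmin, had 0.429 RPM in Control 1 with a fold of 0.77. HMGB6 and AT2G23100 were listed in HS 2 only, at 0.251 and 0.502 RPM, and AT2G23100 was the single site of the class whose p was never under 0.05. AT3G28850, a glutaredoxin, and AT5G05550, a transcription factor, were listed in Recovery 1 only, at 0.291 and 0.582 RPM. Outside this class, NGA3, a transcription factor, and AT1G67590 each had 1.02 RPM and a fold of 2.02 in HS 1, the 2 folds over 2 among the lines under 0.05.

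To ask whether heat changed the signal of the guide, its summed RPM was set side by side in the 3 groups. The sums were 46.9, 37.0 and 35.9 in Control, 25.1, 31.0 and 24.2 in HS, and 24.4, 36.9 and 35.0 RPM in Recovery. Every HS library lay below every Control library, with means of 26.8 ± 3.71 and 39.9 ± 6.09 RPM (SD, n = 3), while Recovery, at 32.1 ± 6.75 RPM, overlapped Control. These sums over members are given without a p. When libraries were rescaled to the same summed RPM, the difference of HS from Control shrank from -13.2 to -4.03 RPM and that of Recovery from Control turned from -7.88 to 18.2 RPM. In whole seedlings, fewer cells of a type and less RNA per cell cannot be told apart, and the levels of the transcripts themselves were not analysed here. Listed sites of green-tissue markers over all guides (5 of 8 genes listed) also differed, at 19.5 to 32.5 RPM in Control, 5.77 to 20.4 in HS and 4.02 to 13.4 after Recovery, where Recovery lay below Control, and no root marker was listed (0 of 6 genes). Their part in the sums of miR414 was not tested.

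The number of sites was 62, 65 and 61 in Control, 40, 61 and 49 in HS, and 40, 66 and 72 in Recovery. Control libraries were alike, and HS 1 and Recovery 1 listed the fewest sites. HS overlapped Control only at 61 sites, and Recovery lay on both sides of Control. The share of miR414 among all listed lines was 16.7 ± 2.43%, 16.1 ± 5.11% and 18.5 ± 2.28% in Control, HS and Recovery, and the groups overlapped.

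The share of miR414 in all listed RPM behaved otherwise. It was 15.7, 11.7 and 10.8% in Control, 8.16, 18.2 and 7.02% in HS, and 19.4, 20.4 and 20.3% in Recovery. Each Recovery library lay above each Control and HS library, and HS overlapped Control, with HS 2 far above HS 1 and HS 3. The RPM of all other guides averaged 261 ± 22.8 in Control, 232 ± 87.7 in HS and 123 ± 22.3 in Recovery, and their Recovery libraries (98.2 to 141 RPM) lay below all Control libraries (236 to 281 RPM). Against Control, the higher share in Recovery thus came with a lower signal of the other guides and not with a higher sum for miR414. Against HS, the mean of the other guides was also lower. The mean sum for miR414 was there higher (32.1 RPM in Recovery against 26.8 in HS), with overlapping libraries.

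By class, HS and Control lay apart without overlap only in the sites with the weakest pairing. Sites with scores of 4.5 to 6 summed to 28.5, 25.9 and 23.8 in Control, 14.9, 15.9 and 14.0 in HS, and 14.2, 18.2 and 20.9 RPM in Recovery. Control lay above every HS and Recovery library, and its mean was 1.74 times that of HS and 1.47 times that of Recovery. After rescaling, the difference from HS was -5.52 RPM, and that of Recovery from Control became 7.17 RPM. Sites with scores of 2.5 to 4 summed to 11.6 ± 3.32, 10.5 ± 2.01 and 12.5 ± 4.17 RPM in Control, HS and Recovery, and the groups overlapped. Sites with scores of 0 to 2 summed to 2.31 ± 0.825, 1.38 ± 1.27 and 1.78 ± 0.0655 RPM, and HS 1 listed none of them. Whether the classes differed in their change was not tested.

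Single sites were tested with limma on log2(RPM + 1) for all 322 sites listed in at least 3 libraries. Sites of the 7 loci left out of the members were kept in these 322, and so in the shares and medians of all tested sites. Members made up 62 of the 322. Of these 62, 28 would have fallen under 3 libraries without the Control libraries, 15 without HS and 23 without Recovery, so that they were tested only through that group, and counts and medians over the 62 are descriptions. No miR414 site passed an adjusted p of 0.05 in HS against Control, where 4.97% of all tested sites did, in Recovery against Control (2.8%) or in Recovery against HS (0.932%). At an unadjusted p under 0.05 there were 5, 4 and 3 miR414 sites of 62, beside 15.8%, 19.3% and 11.8% of all tested sites. Median log2 changes were -0.18 for miR414 sites and -0.13 for all tested sites in HS against Control, -0.01 and -0.15 in Recovery against Control, and 0.08 and -0.02 in Recovery against HS. Rescaling moved the median of all sites in Recovery against Control to -0.02 and that of miR414 sites to 0.12. The HS and Recovery comparisons with Control share the Control libraries, and a fitted change from or to a group at 0 depends on the pseudocount.

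Few sites separated the groups. In HS against Control, 3 miR414 sites were lower without overlap and 3 higher, beside 10.2% and 6.21% of all tested sites. In Recovery against Control 5 were lower and 4 higher (15.8% and 7.14% of all), and in Recovery against HS 1 was lower and 4 higher (7.45% and 5.59% of all).

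J3 held the largest fitted increase in HS. Its site had 0.429, 0 and 0 in Control, 1.02, 2.01 and 1.304 in HS, and 1.16, 1.55 and 0.434 RPM in Recovery. All HS and Recovery libraries lay above all Control libraries, Recovery 3 by less than 1 read. The fold of the J3 site ran from 0.29 to 1.09 with a median of 0.45. The fitted log2 change was 1.1 ± 0.37 (SE) in HS (limma, adjusted p = 0.11) and 0.82 ± 0.37 in Recovery (limma, adjusted p = 0.227). Neither passed the test at the pseudocount of 1, and at a pseudocount of 0.1 the HS change did (limma, adjusted p = 0.0497). The listed sites of heat-response genes over all guides also differed between the groups, at most 0.349 RPM in Control, 42.9 to 94.8 in HS and 6.94 to 13.9 after Recovery, and their part in the J3 signal was not tested. This gene list held AT5G52640 and AT1G16030, which were left out of the members.

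Other sites were listed mainly in HS, without passing the test. FBS1, an F-box protein gene known to respond to stress, was at 0 in Control, at 0.340, 0.753 and 0.978 RPM in HS, and at 0.618 RPM in Recovery 2 alone (HS against Control, log2 change 0.74 ± 0.31, limma adjusted p = 0.236). FBS1 reached the filter only through the HS libraries, where it is high, and its p-value is no support for a change. AT1G76880, a homeodomain-like protein, was at 0 in Control, at 0.875, 0.251 and 0.652 RPM in HS, and at 0.0672 RPM in Recovery 3 alone (0.65 ± 0.25, limma adjusted p = 0.157). Without HS 2 the adjusted p of limma was 0.0326, and 0.0415 for Recovery against HS, but the site reached the filter only through the HS libraries, where it is high, and these p-values are no support for a change. AT2G44130, a kelch repeat protein, was at 0.349 RPM in Control 2, at 0.681, 1.51 and 0.326 in HS and at 0.434 in Recovery 3, and its groups overlapped.

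AT3G52230, an uncharacterized protein gene, was listed in Control only. It had 1.72, 1.05 and 0.316 RPM in Control and 0 in all HS and Recovery libraries, and the Control value nearest to 0 was 1 read. The fitted log2 change was -0.96 ± 0.32 in both comparisons (limma, adjusted p = 0.11 in HS and 0.0835 in Recovery). At a pseudocount of 0.1 the adjusted p of limma was 0.0497 and 0.0422. Since the site was listed in the 3 Control libraries alone, it entered the test only through the group where it is high, and these p-values are no support for a change. AT4G26230, a ribosomal protein L31e, had 1.72, 0 and 1.58 in Control, 0, 0 and 0.326 in HS, and 0, 0.618 and 0.217 RPM in Recovery (HS against Control, -0.80 ± 0.38, limma adjusted p = 0.306). AT1G77885 had 0.429, 1.74 and 0.947 in Control, 0, 1.00 and 0 in HS, and 0, 0.309 and 0.868 RPM in Recovery, and its groups overlapped.

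In Recovery, ROC3 stood out by its level. Its site, with a score of 5.5, had 0.858, 0.349 and 1.26 in Control, 0.340, 1.25 and 0 in HS, and 1.75, 1.55 and 3.04 RPM in Recovery, and with 10.4 RPM over all libraries it had the largest sum among the sites with scores of 4.5 to 6. Recovery lay above all other libraries, Recovery 2 by less than 1 read (Recovery against HS, log2 change 1.07 ± 0.41, limma adjusted p = 0.204). The folds of ROC3 ran from 0.23 to 0.63, so that its site lay below its surroundings in every library that listed it. AT2G39020, an acyltransferase, was at 0 in Control, at 0.340 RPM in HS 1 alone, and at 0.582, 0.618 and 0.651 RPM in Recovery (Recovery against Control, 0.69 ± 0.28, limma adjusted p = 0.178). AT2G44060, a late embryogenesis abundant protein, had 0.429 RPM in Control 1, 0 in HS, and 0.291, 0.618 and 0.651 RPM in Recovery (Recovery against HS, 0.60 ± 0.27, limma adjusted p = 0.392). AT2G39020 and AT2G44060 reached the filter only through the Recovery libraries, where they are high, and their p-values are no support for a change.

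RPL4, a protein of the large ribosomal subunit, had 0.631 RPM in Control 3, 0.326 in HS 3 and 0.927 and 1.302 in Recovery 2 and 3. BBD1, a nuclease of basal defence, went the other way from ROC3, with 2.57, 0.698 and 1.26 in Control, 0.340, 1.51 and 0.652 in HS, and 0, 0 and 0.651 RPM in Recovery (Recovery against Control, -1.02 ± 0.39, limma adjusted p = 0.142). Its Recovery libraries lay below all Control libraries, the highest by less than 1 read.

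Several abundant or recurrent sites showed no separation of the groups. AT2G35680, a phosphotyrosine phosphatase, had 3.43, 0 and 0.316 in Control, 0.681, 0.502 and 0.652 in HS, and 1.75, 0.309 and 0.651 RPM in Recovery, and 3.43 RPM was the highest value of any miR414 line. AVP1 had 1.18, 0 and 1.89 in Control, 0.681, 0.963 and 0 in HS, and 0, 0.618 and 1.52 RPM in Recovery. With folds of 0.25 to 0.45, the AVP1 site lay below its surroundings each time. AT4G02450, an HSP20-like chaperone family member, had 1.72, 1.40 and 0 in Control, 1.02, 0 and 0.326 in HS, and 0.873, 1.24 and 0.868 RPM in Recovery. In each of these sites the spread within a group was as wide as that between groups.

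AGP21, an arabinogalactan protein, had 2.09 RPM in Control 2, 2.38 and 0.753 in HS 1 and HS 2, and 1.16 and 0.927 in Recovery 1 and 2, and was at 0 elsewhere. CAM1 had 0.429, 0.349 and 0 in Control, 0, 0.502 and 0 in HS, and 0.291, 1.24 and 0.217 RPM in Recovery. AT3G05220, a heavy-metal-associated domain protein, was at 0.316 RPM in Control 3, at 0.251 and 0.121 RPM in HS 2 and HS 3, and at 0.873, 0.618 and 0.434 RPM in Recovery, above all other libraries. Calmodulin genes encode near-identical proteins, but the CAM1 site lay in the 3′ UTR. Whether its reads were shared with other calmodulin genes was not tested.

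AT1G22850, a SNARE-associated Golgi protein, had 0.429, 0.349 and 0.316 in Control, 0.681, 0 and 0.326 in HS, and 1.16, 0 and 1.302 RPM in Recovery. AT1G19660, a wound-responsive family member, had 0, 1.40 and 0.631 in Control, 1.02, 0.251 and 0.326 in HS, and 0, 0.309 and 0.217 RPM in Recovery. MEE9, Cand7 and AT4G28770, a tetraspanin, were among the sites of scores 2.5 to 4 with the largest sums, at 4.94, 3.57 and 3.93 RPM over all libraries, and each was at 0 in at least 1 library of every group. GDU3 recurred in 6 libraries through fractions of a read, with a sum of 0.202 RPM. AT1G47395, also in 6 libraries, summed to 2.05 RPM. It had 0.227, 1.17 and 0.208 in Control, 0.0408, 0.251 and 0 in HS, and 0, 0.155 and 0 RPM in Recovery. Its Recovery libraries lay below all Control libraries, by less than 1 read at the closest (limma, adjusted p = 0.317).

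Genes of chromatin and nucleolar proteins were a conspicuous group by name. By words in their annotated products, 10 of the 236 loci (4.24%) fell here, beside 206 annotated genes (0.657% of all), and they carried 13 sites. The share of loci was 8.05% against 4.36% of annotated genes for transcription factors, 4.66% against 2.20% for translation, 1.27% against 0.836% for chaperones and 5.51% against 5.23% for kinases and phosphatases. It was lower than the share of annotated genes for transport (1.69% against 2.13%) and RNA binding (0.847% against 1.104%), and nearly equal for calcium (0.847% against 0.852%). These shares are descriptions, and expressed genes with many reads were not separated from the others. The translation words also took in AT5G46030 and AT5G25520, whose products are named for transcription elongation, and HMGB6 was not matched by the chromatin words. The kinase and phosphatase words also took in AVP1, the vacuolar proton pyrophosphatase.

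Within the chromatin and nucleolar group, sites summed to values between 3.14 and 4.29 RPM in Control, between 1.304 and 3.75 in HS, and between 0.434 and 1.85 in Recovery, so that Recovery lay below Control. Only 4 of its 13 sites were listed often enough to be tested, and none of the 4 passed the limma test in any comparison. The RPM of all other guides was also lower in Recovery (98.2 to 141) than in Control (236 to 281), without overlap, while the sum of all miR414 sites overlapped Control. Green-tissue markers were also lower in Recovery than in Control, as given above. The part of either in the chromatin and nucleolar sums was not tested. Sums were computed for every function group, and this group was not set apart beforehand. Loci matched by none of the words also separated, at 16.4 to 18.9 RPM in HS against 22.6 to 30.5 in Control. The remaining groups overlapped Control in HS and in Recovery. HMGB3 had 0.858, 0 and 2.21 in Control, 0, 0.753 and 0.326 in HS, and 0.291, 0.309 and 0.217 RPM in Recovery, with overlapping groups. HMGB2 had 0.858, 0.349 and 1.26 in Control, 0.681, 1.00 and 0 in HS, and 0, 0.309 and 0 RPM in Recovery, where Recovery lay below Control by less than 1 read at the closest (log2 change -0.70 ± 0.35, limma adjusted p = 0.267). NUC-L1, a nucleolin that acts in ribosomal RNA gene expression, had 0.858, 1.05 and 0 RPM in Control, 0.326 RPM in HS 3 and 0.927 and 0.217 RPM in Recovery 2 and 3. The nucleosome assembly proteins NAP1;2 and NAP1;3 had 3 sites that were each listed in at most 2 libraries.

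More than 1 miR414 site was found at 10 of the 236 loci. AT2G11910, an uncharacterized protein gene, held 4 sites, at transcript positions 286, 313, 442 and 502, with scores of 6, 3, 4 and 3. Their sums over all libraries were 2.12, 0.783, 0.675 and 2.58 RPM, in 4, 2, 2 and 5 libraries. The nucleolin AT1G47970 held 3 sites at positions 206, 371 and 638, and the remaining 8 loci held 2 each. At AT1G63980, a G-patch protein, the positions 889 and 898 lay 9 bases apart on the same repeat, and their windows carried the letters shown above for CAM1. Sites that share a repeat are not independent of each other.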

How the data were processed

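NanoPARE libraries of 9 seedling samples were analysed, 3 per group, with groups and replicate numbers taken from the sample titles. The authors ran the public nanoPARE pipeline and deposited 1 list of candidate slice sites per library, and the genome build per the labels was TAIR10. Version, aligner settings and miRNA set: not given in the sources used here. Signal per site is in RPM as the authors deposited it. The deposited ratio, called fold, is the site RPM plus 1 over the local background RPM plus 1. A p-value, adjusted by the authors' pipeline, was deposited for every line. The Allen score was deposited by the authors as the pairing penalty, and positions are those in the transcript.

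In each library 1 read was taken to be worth the RPM value that occurred most often, which implies 2331769 to 4609739 reads per library, and 89.2% to 94.5% of values then came to whole reads, with a tolerance of 0.01. No counts were recovered and no count model was fitted. Depth limits single sites, PCR copies could not be told from separate molecules, and a site not listed was entered as 0 RPM.

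Per-site tests used limma 3.58.1 under R 4.3.3 (lmFit, then eBayes with trend) on log2(RPM + 1) of sites listed in at least 3 libraries, all 9 libraries in 1 fit, with Benjamini-Hochberg adjustment over 322 sites and calls at 0.05. Changes are on that log2(RPM + 1) scale and are understated for low sites. miR414 and other guides were compared within libraries by two-sided exact sign-flip permutation, with adjustment over 8 tests. Permutation tests between groups had been planned for sums and numbers of members and are not given. These sums and numbers are descriptions without a p. Python 3.11.15, pandas 2.3.3 and NumPy 2.4.6 served for all other steps.

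Windows were scored without gaps, 1 per mismatch and 0.5 per G:U pair, doubled at miRNA bases 2 to 13, on RefSeq transcripts of TAIR10.1. All coordinates are 1-based. Sites were named if they passed limma, were listed in at least 6 libraries, had the authors' p under 0.05 in at least 2, were among the 5 largest sums of a class, or among the 3 largest and 3 smallest limma changes of a comparison. Other sites of the class 0 to 2, of loci with several sites and of function groups were named after their values were seen. The members, lists and rules were chosen with earlier results of these data known. Replicate numbers did not pair the libraries.

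Alternatives were leaving out each library, a replicate block, keeping the 7 loci in, lines of at least 2 reads only, rescaled libraries, means over lines, other pseudocounts and filters, fits of only 2 groups, and 1 row per guide and locus.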

Additional observations from a re-analysis of the deposited data

How the results depend on the processing

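Of the values under the alternatives run, 388 kept their call or moved by less than the spread between replicates, but 19 of these, in 9 results, changed sign, 13 of them when 1 library was left out. Without Recovery 1 the difference of Recovery from Control turned from -3.33 to 6.33 in sites, from -3.33 to 6.67 in loci and from -5.33 to 0.333 in sites of scores 4.5 to 6. With lines of at least 2 reads it was 5.33 for sites and for loci. The HS difference in the share of lines ran from -3.51 to 1.09 and in the share of RPM from -5.16 to 0.441 over the libraries left out, and the former was 0.294 with the 7 loci kept in. For scores 2.5 to 4, leaving out libraries gave -2.2 to 0.782 RPM and -4.33 to 0.167 sites in HS, and -1.18 to 2.99 RPM and -0.333 to 7.67 sites in Recovery. In HS this class differed by 0.369 RPM and 1 site with lines of at least 2 reads, and by 1.71 RPM with rescaled libraries. Differences of group means are given as HS or Recovery minus Control. With the 7 loci kept in, the summed RPM in Recovery differed by -17.6, and the class sums by 0.734 (scores 0 to 2, HS), -14.1 (4.5 to 6, HS) and -18.3 (4.5 to 6, Recovery). With lines of at least 2 reads only, the difference in Recovery was -2.21 RPM for the sum, 8.09 percentage points for the share of lines and 11.4 for the share of RPM, and the class 4.5 to 6 differed by -7.89 RPM (HS) and -4.77 RPM (Recovery). With rescaled libraries the sums differed by -4.03 RPM (HS) and 18.2 RPM (Recovery), the class 0 to 2 by 1.02 (Recovery), the class 2.5 to 4 by 10.05 (Recovery) and the class 4.5 to 6 by -5.52 (HS) and 7.17 (Recovery). The cause of these shifts was not tested.

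Leaving out each library kept the median Allen score of miR414 below that of the other guides (difference -0.906 to -0.844), but the exact permutation test over 8 libraries cannot go below an adjusted p of 0.0625. The difference from miR5021 ran from -0.219 to 0.0313 and turned without HS 3. With lines of at least 2 reads the median exceeded that of miR5658 by 0.75 (exact permutation, adjusted p = 0.0313). The mean RPM over lines was 0.162 lower for miR414 than for other guides (-0.162, exact permutation, adjusted p = 0.164), and the fold difference of the classes 0 to 2 and 4.5 to 6 became -0.0449 with the 7 loci kept in.

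The limma test called 0 to 1 miR414 sites in HS against Control and in Recovery against HS when libraries were left out, each time AT1G76880 without HS 2, and 0 in Recovery against Control. A pseudocount of 0.1 gave 2 calls in HS (J3 and AT3G52230) and 1 in Recovery (AT3G52230). Over all sites, calls ran from 5 to 21 in HS against Control (16 as reported), from 1 to 30 in Recovery against Control (9) and from 0 to 13 in Recovery against HS (3). Same-numbered libraries did not deviate together (r from -0.098 to 0.099), and with the replicate number as a block 0 miR414 sites were called in every comparison.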
